A study of Arabidopsis thaliana with 10 samples.

Results

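Nitrate uptake and reduction in Arabidopsis thaliana seedlings was followed here through 10 genes. They are the high-affinity nitrate transporters NRT2.1 (AT1G08090), NRT2.2 (AT1G08100), NRT2.4 (AT5G60770) and NRT2.5 (AT1G12940), their partner protein NRT3.1 (AT5G50200) and the dual-affinity nitrate transporter NRT1.1 (AT1G12110). The others are the nitrate reductases NIA1 (AT1G77760) and NIA2 (AT1G37130), the nitrite reductase NIR1 (AT2G15620) and the ammonium transporter AMT1;1 (AT4G13510). The genes were chosen by name, as 10 of the 32753 loci of the table, with earlier results of these data known. Among these was the value of NRT2.1 in 1 comparison. That comparison, rapamycin against mock in the RiD line, is therefore given for these genes as a description with no test. Brassinolide against mock shares its RiD mock libraries, and rapamycin against brassinolide its RiD rapamycin libraries. Adjusted p-values of the genes in these comparisons are read with that limit.

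Whole 5-day-old seedlings were sequenced after 5 days of dark growth, and every group, the mock groups included, had 2 µM PPZ (named so in the labels) in its medium. The wild-type accession Col-0 was either mock-treated or given 100 nM rapamycin, a macrolide that joins an FKBP protein to an FRB domain. A line labelled RiD-BRI1/BAK1, here RiD, was mock-treated, given 100 nM rapamycin or given 100 nM brassinolide, a potent brassinosteroid. BRI1 is the receptor kinase of that hormone and BAK1 a kinase that works with it. By the series title and design, the study asked whether a small molecule can switch on a plant receptor kinase. The labels do not state the promoters or domains of the RiD line, nor whether it is 1 transformant or several.

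Plants take up nitrate through low-affinity carriers of the NPF family and, when nitrate is scarce, through high-affinity carriers of the NRT2 family, which need the small membrane protein NRT3.1 to work. In the cytosol nitrate reductase turns nitrate into nitrite, which nitrite reductase turns into ammonium in plastids, and glutamine synthetase then builds ammonium into amino acids. NRT2.1 is best known from the epidermis and cortex of roots, and the reductase genes are known to be induced by nitrate.

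Each of the 5 groups held 2 libraries of polyadenylated RNA, numbered 1 and 2. Values are normalized counts per locus, summed over the transcripts of a locus. Libraries summed to 23244655 to 26987555 normalized counts, and 3 reads were estimated to be worth 2.17 to 4.17 normalized counts in a library. Differences are given on the log2(value + 1) scale with the standard error (SE) of a limma fit over all 10 libraries, and a locus is called where its Benjamini-Hochberg adjusted p over the 23285 tested loci was under 0.05. Fold values are ratios of group means. Statements that groups do or do not overlap describe 2 libraries per group, and no share of all loci is given beside them. Whole seedlings were sampled, so that fewer cells of a type and less RNA per cell cannot be told apart. The labels do not tell whether replicate libraries stem from different plantings, and p-values reflect library-to-library spread, which may be technical. Of the 10 genes, 8 passed the filter (1 normalized count or more in 2 or more libraries), and NRT2.1 and NRT2.5 passed it through treated RiD libraries.

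NRT2.1, the main high-affinity nitrate transporter of roots, was near 0 in the Col-0 groups and in RiD mock. It lies at chr1:2524023-2526322 on the plus strand of TAIR10.1, and NRT2.2 is its neighbour on the minus strand at chr1:2527170-2529120, with 847 bases between the genes. The coding sequences of NRT2.1 and NRT2.2 are identical at 89.4% of aligned positions, with a longest identical run of 170 bases, and their proteins at 88.3%. The 250 bases upstream of each annotated gene start are shown because the pair is so alike while its listed values differ. How reads shared by the pair were assigned is not known. They were read 5′ to 3′ from the TAIR10.1 genome of RefSeq, at chr1:2523773-2524022 on the plus strand and at chr1:2529121-2529370 on the minus strand. Capitals mark the 3 stretches of at least 12 bases that both windows hold, the longest of 22 bases.
NRT2.1: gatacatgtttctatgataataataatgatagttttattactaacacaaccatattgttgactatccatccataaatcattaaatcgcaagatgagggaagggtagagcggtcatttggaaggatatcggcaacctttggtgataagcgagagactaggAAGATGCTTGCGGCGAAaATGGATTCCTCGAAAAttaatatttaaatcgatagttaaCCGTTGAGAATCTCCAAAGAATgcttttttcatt
NRT2.2: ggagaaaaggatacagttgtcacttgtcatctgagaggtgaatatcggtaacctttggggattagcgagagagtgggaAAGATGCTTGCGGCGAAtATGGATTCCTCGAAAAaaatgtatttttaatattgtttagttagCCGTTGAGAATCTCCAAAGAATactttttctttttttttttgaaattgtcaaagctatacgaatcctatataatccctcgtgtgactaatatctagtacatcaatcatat

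NRT2.1 read 193.2 and 367.5 normalized counts in the RiD rapamycin libraries and 38.2 and 61.8 in the RiD brassinolide libraries. In both RiD mock libraries and both Col-0 rapamycin libraries it was listed at 0, and the Col-0 mock libraries held 2.49 and 0.732. The RiD rapamycin libraries were thus the highest, the RiD brassinolide libraries came next, and the treated RiD groups did not overlap with each other or with any other group. The means were 280.4 ± 123 with rapamycin and 49.97 ± 16.7 with brassinolide (SD, n = 2). The floor of 3 reads per library averaged 3.13 normalized counts in RiD mock. Set against that floor, the mean of NRT2.1 was 89.5-fold higher with rapamycin and 15.9-fold higher with brassinolide. These folds are of group means and leave out the spread between libraries. NRT2.1 passed the filter only through the treated RiD libraries, and its RiD mock values were known when it was chosen, so that its values with brassinolide against mock are likewise a description. The comparison of rapamycin with brassinolide gave a log2 difference of 2.43 (SE 0.50), 5.61-fold, with an adjusted p of 0.0490, in a comparison that shares the rapamycin libraries with the one known at the choice. That call was lost when any of the 10 libraries was left out, with adjusted p from 0.0519 to 0.290, while the fit with the library number as a block gave 0.00496.

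The other NRT2 transporters among the 10 genes stayed at or near 0. NRT2.7, outside the 10, averaged 377.7 ± 72.5 in RiD mock, 465.0 ± 35.8 with rapamycin and 501.7 ± 47.9 with brassinolide. Neither difference from RiD mock was called (adjusted p = 0.258 and 0.235, with the block 0.0487 and 0.0197). NRT2.6, also outside the 10, is given below. NRT2.2 and NRT2.4, a transporter known from starved plants, were listed at 0 in all 10 libraries. How reads shared by NRT2.1 and NRT2.2 were assigned is not known, and a value of NRT2.1 may hold reads of its neighbour. The 0 of NRT2.2 thus need not mean that its transcript was absent. NRT2.5, known from long starvation, held 5.57 and 4.59 normalized counts in the RiD rapamycin libraries, 0 and 0.773 with brassinolide and 0 in the other 6 libraries. The RiD rapamycin libraries were the highest for NRT2.5, but their values lie close to the floor of 3 reads and no fold is given. It passed the filter only through these libraries, so that its adjusted p against brassinolide, 0.0631 and with the block 0.0385, supports no difference.

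NRT3.1, the partner that NRT2 transporters need at the plasma membrane, had 3857 and 3388 normalized counts in the RiD rapamycin libraries and 2208 and 1736 in the RiD brassinolide libraries. Its RiD mock libraries held 573.8 and 449.8, the Col-0 mock libraries 453.0 and 373.2, and the Col-0 rapamycin libraries 558.8 and 406.0. As for NRT2.1, RiD rapamycin was highest and RiD brassinolide next, and both lay above every other library. NRT3.1 was 7.08-fold higher with rapamycin than in RiD mock, a log2 difference of 2.83 (SE 0.22). With brassinolide it rose 3.85-fold, by 1.94 (SE 0.22), with an adjusted p of 0.00227. Rapamycin against brassinolide gave 0.88 (SE 0.22) with an adjusted p of 0.0914, and 1.80e-05 with the library number as a block, so that this difference was called only with the block. The first annotated transcript carried nearly all of the signal, with a mean of 3534 in RiD rapamycin, where the second had 88.0 and the third was listed at 0 in all libraries.

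Per kilobase of exon, the levels of the partner and the carrier stood far apart. NRT3.1 averaged 3296 normalized counts per kilobase in RiD rapamycin and NRT2.1 averaged 133. The ratio of NRT3.1 to NRT2.1 per kilobase was 38.3 and 17.7 in the RiD rapamycin libraries and 111.1 and 54.0 in the RiD brassinolide libraries. In every library that held both at a measurable level the partner was thus the more abundant transcript.

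NRT1.1, the dual-affinity carrier that also acts as a nitrate sensor, was not called in any comparison. Its Col-0 mock libraries held 4199.5 and 4659 normalized counts, its Col-0 rapamycin libraries 4796 and 3346 and its RiD mock libraries 4906 and 4677.5. In RiD rapamycin NRT1.1 had 3647 and 4334, and in RiD brassinolide 3876 and 4456.5. The treated RiD libraries lay below those of RiD mock, yet inside the range of the Col-0 libraries. The log2 difference from RiD mock was -0.20 (SE 0.20) with brassinolide, with an adjusted p of 0.663, and -0.27 (SE 0.20) with rapamycin.

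**Figure D1:**
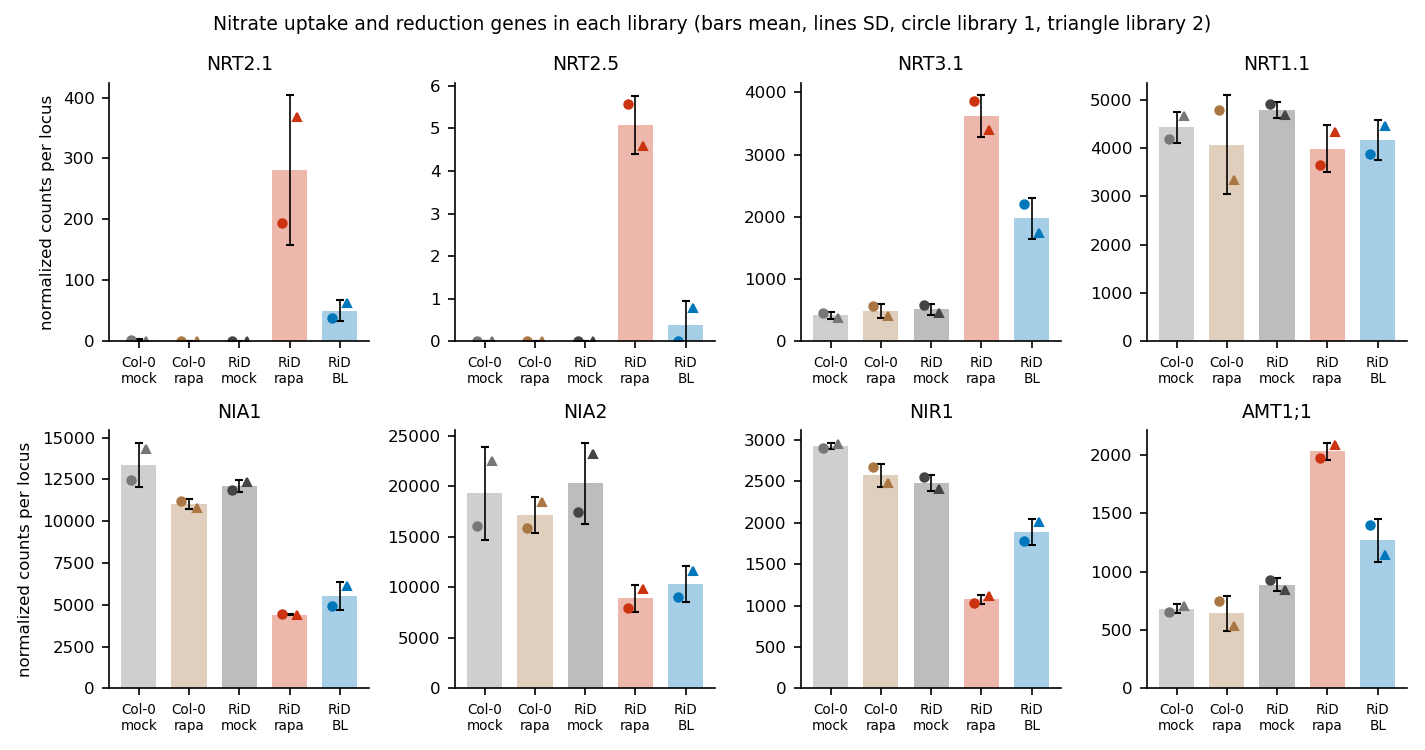
Normalized counts per locus (y axis, linear from 0) of 8 genes in the 5 groups (x axis; rapa, rapamycin; BL, brassinolide). Bars are means, lines the SD, circles library 1 and triangles library 2. NRT2.1 and NRT3.1 stand highest in RiD rapamycin and next highest in RiD brassinolide, NIA1, NIA2 and NIR1 stand lowest in RiD rapamycin, and NRT1.1 stays between 3346 and 4906 in all libraries.

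The enzymes that reduce nitrate showed the opposite pattern. NIA1, NIA2 and NIR1 lie apart, on chromosome 1 and chromosome 2, and their upstream windows of 250 bases are shown since the 3 genes were low together. Capitals mark matches to the E-box CANNTG and to CGTGTG, a form of the brassinosteroid response element. The windows are at chr1:29239485-29239734 on the minus strand for NIA1, at chr1:14158202-14158451 on the plus strand for NIA2 and at chr2:6810145-6810394 on the plus strand for NIR1, all in TAIR10.1 of RefSeq.
NIA1: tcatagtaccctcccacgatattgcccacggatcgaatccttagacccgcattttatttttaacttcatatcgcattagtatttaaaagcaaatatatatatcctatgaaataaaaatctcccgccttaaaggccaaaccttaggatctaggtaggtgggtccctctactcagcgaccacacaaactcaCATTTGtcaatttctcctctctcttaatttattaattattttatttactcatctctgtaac
NIA2: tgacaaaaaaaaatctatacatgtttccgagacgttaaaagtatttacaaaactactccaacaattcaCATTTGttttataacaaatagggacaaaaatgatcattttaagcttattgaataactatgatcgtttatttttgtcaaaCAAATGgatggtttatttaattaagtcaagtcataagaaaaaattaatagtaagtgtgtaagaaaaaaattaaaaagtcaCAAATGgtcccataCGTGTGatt
NIR1: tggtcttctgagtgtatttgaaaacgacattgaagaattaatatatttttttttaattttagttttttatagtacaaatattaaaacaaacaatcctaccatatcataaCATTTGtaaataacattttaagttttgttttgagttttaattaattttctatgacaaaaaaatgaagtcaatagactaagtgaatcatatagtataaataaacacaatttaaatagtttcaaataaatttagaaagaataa

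On both strands, NIA2 held CGTGTG once, starting 9 bases upstream of the annotated start, and E-boxes at 182, 103 and 23 bases. NIA1 held 1 E-box at 61 bases and NIR1 1 at 141 bases. Among 27443 windows of the same length, 55.3% held an E-box and 5.37% held CGTGTG. The G-box CACGTG, which is also an E-box, is in 6.49% of windows, the element form CGTGCG in 1.57%, and the nitrate-responsive pattern GACNCTTNNNNNNNNNNAAG in 0.146%. None of these last 3 was in the window of any of the 10 genes. NRT2.1 held 1 E-box at 138 bases, NRT1.1 held 2 at 114 and 112 bases, and AMT1;1 held 2 at 244 and 140 bases. NRT2.2 held CGTGTG at 32 bases and 3 E-boxes, and NRT3.1, NRT2.4 and NRT2.5 held none of the motifs. These matches describe letters in a window.

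NIA1, a nitrate reductase, had 4439 and 4388 normalized counts in the RiD rapamycin libraries and 4949.9 and 6106 in the RiD brassinolide libraries. The RiD mock libraries held 11866 and 12364, the Col-0 mock libraries 12429 and 14309, and the Col-0 rapamycin libraries 11215 and 10787. All 4 treated RiD libraries lay below all 6 others. NIA1 was 2.75-fold lower with rapamycin than in RiD mock, at -1.46 (SE 0.16) on the log2 scale. With brassinolide it fell by 1.14 (SE 0.16) on the log2 scale, 2.19-fold, with an adjusted p of 0.00458 and at most 0.0479 when any library was left out. The difference between the 2 treatments was -0.32 (SE 0.16), rapamycin lower, with an adjusted p of 0.394 and 0.0308 with the block.

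NIA2, the isoform known to give most of the nitrate reductase activity of Arabidopsis, read 7987 and 9847 normalized counts in the RiD rapamycin libraries and 9075 and 11569 in the RiD brassinolide libraries. RiD mock held 17474 and 23158, Col-0 mock 16048 and 22534, and Col-0 rapamycin 15885 and 18438. The treated RiD libraries were again below the other 6, while the rapamycin and brassinolide groups overlapped. NIA2 was 2.28-fold lower with rapamycin, at -1.18 (SE 0.24). With brassinolide the log2 difference was -0.97 (SE 0.24), 1.97-fold lower, with an adjusted p of 0.0496. That call was kept without Col-0 mock 1 or Col-0 mock 2 and lost without any of the other 8 libraries, at adjusted p from 0.0667 to 0.303. The fit with the block gave an adjusted p of 1.16e-06. NIA2 was higher in library 2 than in library 1 in 5 of 5 groups, by 0.22 to 0.49 on the log2 scale.

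The summed signal of both reductase genes was 29340.0 and 35521 normalized counts in RiD mock, and came to 12425 and 14235 with rapamycin and to 14025 and 17675 with brassinolide. Per kilobase, NIA2 exceeded NIA1 in every library, and the mean ratio of NIA2 to NIA1 was 1.41 ± 0.197 in Col-0 mock, 1.54 ± 0.204 in Col-0 rapamycin and 1.65 ± 0.279 in RiD mock. It was 1.99 ± 0.310 in RiD rapamycin and 1.83 ± 0.0427 in RiD brassinolide, where the rapamycin libraries, at 1.77 and 2.21, overlapped with the mock libraries at 1.45 and 1.84. The coding sequences of NIA1 and NIA2 are identical at 74.1% of aligned positions, with a longest identical run of 20 bases.

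NIR1, the nitrite reductase, separated the treatments. Its values were 1035 and 1116 normalized counts in RiD rapamycin, 1782 and 2004 in RiD brassinolide and 2552 and 2410.4 in RiD mock. The Col-0 mock libraries held 2898 and 2956, and the Col-0 rapamycin libraries 2667 and 2474. The 3 RiD groups did not overlap, with rapamycin lowest and mock highest. NIR1 was 2.31-fold lower with rapamycin than in RiD mock, at -1.21 (SE 0.14). With brassinolide the log2 difference from RiD mock was -0.39 (SE 0.14), with an adjusted p of 0.149 and 0.00628 with the block. Rapamycin against brassinolide gave -0.81 (SE 0.14), 1.76-fold lower, with an adjusted p of 0.0227. That call was lost without Col-0 mock 1 (0.0505), RiD rapamycin 1 (0.145), RiD rapamycin 2 (0.107), RiD brassinolide 1 (0.103) or RiD brassinolide 2 (0.170), each an adjusted p. The ratio of summed NIA1 and NIA2 to NIR1 was 13.1 ± 2.29 in RiD mock, 12.4 ± 0.533 with rapamycin and 8.34 ± 0.671 with brassinolide, and the brassinolide libraries were below all other libraries in it.

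AMT1;1, a high-affinity ammonium transporter of the plasma membrane, had 1977 and 2086 normalized counts in RiD rapamycin, 1398 and 1140.4 in RiD brassinolide and 927.7 and 847.5 in RiD mock. The Col-0 mock libraries held 655.1 and 708.9, and the Col-0 rapamycin libraries 751.9 and 538.2. The 3 RiD groups did not overlap, and every RiD library was above every Col-0 library. RiD mock against Col-0 mock gave 0.38 (SE 0.19) and was not called, with an adjusted p of 0.287 with the block. AMT1;1 was 2.29-fold higher with rapamycin than in RiD mock, at 1.19 (SE 0.19). With brassinolide the log2 difference was 0.51 (SE 0.19), with an adjusted p of 0.181 and 0.00883 with the block. Rapamycin against brassinolide gave 0.69 (SE 0.19), with an adjusted p of 0.122 and 0.00181 with the block.

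Ordered by their mean per kilobase in RiD mock, the genes ran from NIA2 with 6339 normalized counts per kilobase through NIA1 with 3840, NRT1.1 with 2176 and NIR1 with 1131 to AMT1;1 with 511.3 and NRT3.1 with 465.7, and NRT2.1 was at 0. AMT1;1 and NRT3.1 overlapped between libraries and the other neighbours did not. In RiD rapamycin the order was NRT3.1 with 3296, NIA2 with 2782, NRT1.1 with 1812, NIA1 with 1399, AMT1;1 with 1170.2, NIR1 with 490.5 and NRT2.1 with 132.8, and no neighbours overlapped.

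Across the comparisons, the count of called genes was read against the share of all tested loci. In RiD rapamycin against RiD mock 4 of the 8 tested genes were called higher (NRT2.1, NRT2.5, NRT3.1 and AMT1;1) and 3 lower (NIA1, NIA2 and NIR1), where 12.3% of tested loci were called higher and 9.72% lower, and nothing is read from that count since the choice of genes knew this comparison. NIA2 did not pass there without RiD mock 2 or without RiD rapamycin 1. In RiD brassinolide against RiD mock, which shares the mock libraries, 2 were called higher (NRT2.1, under the limit given above, and NRT3.1) and 2 lower (NIA1 and NIA2), against 4.63% and 2.13% of tested loci. With the block 3 were higher and 3 lower, against 14.8% and 12.8%. Since the mock libraries are those of the comparison known at the choice, these counts are a description. In RiD rapamycin against RiD brassinolide 1 was called higher (NRT2.1) and 1 lower (NIR1), each under the limits given above, against 1.03% and 1.53%. With the block 4 were higher and 2 lower, against 10.9% and 9.09% of loci. The 4 include NRT2.1 and NRT2.5, which passed the filter only through treated RiD libraries. The values of NRT2.5 support no difference, so that the count of 4 is a description.

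Without the RiD line, rapamycin left no call. In Col-0 rapamycin against Col-0 mock 0 of the 8 genes were called by limma, where 0.0% of the tested loci were called and 557 had an unadjusted p under 0.05, 1 of them among the 8 genes. The log2 difference of NRT3.1 in Col-0 was 0.21 (SE 0.22), that of NIA1 -0.28 (SE 0.16), that of NIR1 -0.19 (SE 0.14) and that of AMT1;1 -0.10 (SE 0.19), each with an adjusted p of 1. In RiD mock against Col-0 mock 0 of the 8 genes were called by limma, against 0.0% of the tested loci, of which 695 had an unadjusted p under 0.05, 1 of them among the 8. The largest of these differences outside NRT2.1 was that of AMT1;1, at 0.38 (SE 0.19), and the block gave no call for the 8 genes in either comparison.

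**Figure D2:**
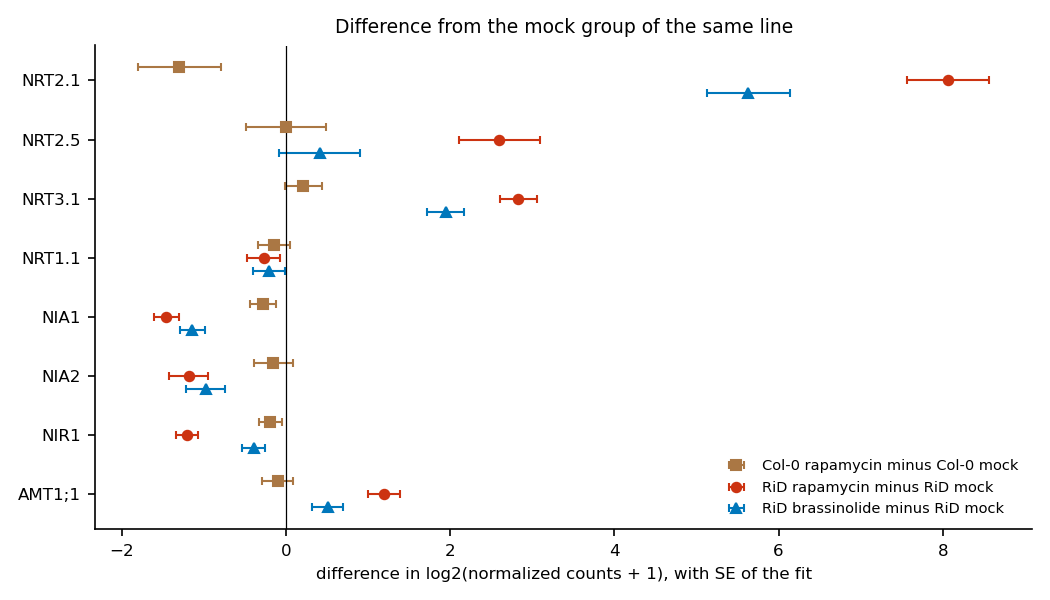
Difference in log2(normalized counts + 1) from the mock group of the same line (x axis) with the SE of the fit (lines) for 8 genes (y axis). Circles are RiD rapamycin, triangles RiD brassinolide and squares Col-0 rapamycin. NRT2.1 lies at 8.06 and 5.63 in RiD and NRT3.1 at 2.83 and 1.94, NIA1 lies at -1.46 and -1.14, and NRT1.1 stays within 0.27 of 0 in all 3.

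The rapamycin effect in RiD minus that in Col-0 was called higher for 3 of the 8 genes and lower for 2, against 6.49% and 3.56% of tested loci. It holds the comparison that was known when the genes were chosen, and its values are likewise a description. The difference of effects was 9.36 (SE 0.71) for NRT2.1, 2.62 (SE 0.32) for NRT3.1, 1.29 (SE 0.27) for AMT1;1, -1.18 (SE 0.22) for NIA1 and -1.02 (SE 0.19) for NIR1. NIA2, at -1.03 (SE 0.34), was called only with the block.

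The genes around this pathway were followed in 7 lists of 98 loci, written from general knowledge with earlier results of these data known. The lists were thus not chosen blind to the data, and their p-values are read with that limit. The counts of these lists are set beside the shares of all tested loci given above. They are also set beside the median log2 difference of all tested loci, which was -0.03 with rapamycin and -0.02 with brassinolide in RiD. In Col-0 rapamycin against Col-0 mock and in RiD mock against Col-0 mock no locus of any list was called in the fit without the block. With the block 0 were called in the former and 2 in the latter, both higher in RiD mock and named here after their values were seen. IRT1, the iron transporter of roots, averaged 433.6 ± 159 in RiD mock and 21.8 ± 2.83 in Col-0 mock (adjusted p = 0.102, with the block 0.00747), and FRO2, a root ferric reductase, 129.9 ± 59.7 and 19.7 ± 3.24 (adjusted p = 0.359, with the block 0.000349). The block raised the share of all loci called in RiD to 24.1% in each direction with rapamycin, and to 14.8% higher and 12.8% lower with brassinolide. The blocked counts of lists below are read beside those shares.

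Among the other nitrate transporters 17 of 18 loci were tested, and with rapamycin in RiD 4 rose and 5 fell, with a median of -0.07. NPF7.3, which loads nitrate into the root xylem, had 10479 and 10110.3 normalized counts in RiD mock, 1095 and 1303 with rapamycin and 2985 and 2516 with brassinolide. It fell by 3.11 (SE 0.17) with rapamycin, with an adjusted p of 2.77e-05, and by 1.91 (SE 0.17) with brassinolide, with an adjusted p of 0.000734. The fall was 8.59-fold and 3.74-fold, and no RiD group overlapped with another. NPF1.2, which moves nitrate into the phloem of leaves, averaged 7963 ± 1072 in RiD mock and 1454 ± 149 in RiD rapamycin, 5.48-fold lower (adjusted p = 7.56e-05). With brassinolide its mean was 5200 ± 584, which was not called (adjusted p = 0.0829, with the block 0.000584), and rapamycin lay 3.58-fold below brassinolide (adjusted p = 0.00162). SLAH1, an anion channel subunit of the root stele, fell from 238.4 ± 65.4 to 22.9 ± 10.8 with rapamycin (adjusted p = 0.000521) and to 42.0 ± 12.8 with brassinolide (adjusted p = 0.00624, and 0.0603 without RiD brassinolide 1).

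NRT2.6, a transporter of the NRT2 family, was listed at 0 in all 4 Col-0 libraries and had 1.29 and 0 normalized counts in RiD mock. In RiD rapamycin it held 96.1 and 97.2, and in RiD brassinolide 2.64 and 10.8. It rose with rapamycin by 6.01 (SE 0.64) on the log2 scale (adjusted p = 0.000477), while brassinolide against mock was not called (adjusted p = 0.1002, with the block 0.0282). NRT2.6 passed the filter only through the treated RiD libraries, so that these values are a description and no test of them is read. The count of 4 that rose with rapamycin includes it. NPF2.9, a root phloem carrier, fell 2.08-fold with rapamycin (adjusted p = 0.00150) and 1.71-fold with brassinolide (adjusted p = 0.0172). The latter call was lost without any single RiD mock or RiD brassinolide library (up to 0.136). With brassinolide 0 of the 17 rose and 4 fell, with a median of -0.30, and with the block 4 rose and 5 fell. The fourth was SLAH3, an anion channel that passes nitrate, which fell from 1246 ± 120 to 652 ± 41.6 (adjusted p = 0.0202) and averaged 1186 ± 156 with rapamycin, where it was not called (adjusted p = 0.820). The brassinolide call of SLAH3 was lost without any single RiD mock or RiD brassinolide library (up to 0.153).

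Of the other ammonium transporters 4 of 5 loci were tested, and 2 rose with rapamycin, with a median of 0.59. AMT1;2, a root ammonium transporter, had 19.4 and 12.8 normalized counts in RiD mock, 128.0 and 110.9 with rapamycin and 40.9 and 29.4 with brassinolide. It rose 7.43-fold with rapamycin (adjusted p = 0.000741), and with brassinolide gave 1.09 (SE 0.33) with an adjusted p of 0.104 and 0.0261 with the block. AMT2;1, a transporter of another family branch, rose from 294.6 ± 1.25 to 652.8 ± 8.17 with rapamycin (adjusted p = 0.0010) and to 449.1 ± 32.0 with brassinolide (adjusted p = 0.0434), a call that was lost when any 1 library was left out (up to 0.269).

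In ammonium assimilation 15 loci were tested, and with rapamycin 5 rose and 3 fell, with a median of -0.12. GLN1;1, a cytosolic glutamine synthetase, rose from 2246 ± 109 to 6534 ± 754 (2.91-fold, adjusted p = 0.000329), and GDH1, a glutamate dehydrogenase, from 3157 ± 197 to 8597 ± 601 (2.72-fold, adjusted p = 0.00140). ASN1, the dark-induced asparagine synthetase, was the most abundant gene of the list, at 63551 and 73262 normalized counts in RiD mock and 131806 and 138808 in RiD rapamycin (adjusted p = 0.00345). ASN2, another asparagine synthetase, fell from 519.0 ± 10.6 to 134.7 ± 14.2 (3.85-fold, adjusted p = 0.000964). The paralogs thus moved in opposite directions. With brassinolide 1 locus rose and 0 fell, and with the block 5 rose and 4 fell. The locus that rose in the fit without the block was GLN1;4, another cytosolic glutamine synthetase, from 12.7 ± 2.12 to 50.3 ± 3.41 (adjusted p = 0.0238, and up to 0.158 without any single RiD mock or RiD brassinolide library).

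Genes for the cofactors and the reducing power of nitrate and nitrite reductase numbered 16, of which 0 rose and 4 fell with rapamycin, with a median of -0.32. UPM1, an enzyme on the way to siroheme, the cofactor of nitrite reductase, fell from 2166 ± 89.4 to 787.9 ± 114 (2.75-fold, adjusted p = 0.000326). With brassinolide it fell to 1434 ± 22.4 (adjusted p = 0.0485), a call lost when any 1 library was left out (up to 0.223). RFNR2, a root ferredoxin reductase that passes electrons towards nitrite reductase, fell 1.79-fold with rapamycin (adjusted p = 0.00372), and G6PD3, a plastid glucose-6-phosphate dehydrogenase, 2.33-fold (adjusted p = 0.00716). The fourth was AT5G41670, annotated as a 6-phosphogluconate dehydrogenase family protein, which fell 1.66-fold (adjusted p = 0.0159, but 0.0995 without RiD mock 1 and 0.0974 without RiD rapamycin 2). With brassinolide 1 fell and 0 rose. With the block 8 fell with rapamycin and 6 with brassinolide, and 0 rose with either.

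Of 28 regulators of the nitrate response 3 rose and 4 fell with rapamycin, with a median of 0.31, and 13 rose and 7 fell with the block. LBD39, a repressor of nitrate genes, had 2279 and 1328 normalized counts in RiD mock and 504.8 and 360.8 in RiD rapamycin, 4.17-fold lower (adjusted p = 0.00383). The myb-like factor AT3G25790 averaged 20.8 ± 14.8 in RiD mock, 2.16 ± 0.886 with rapamycin (adjusted p = 0.0106) and 2.86 ± 0.321 with brassinolide (adjusted p = 0.0431), at or under the floor of 3 reads in both treated groups. Its rapamycin call was lost without RiD mock 2 (0.0567) or RiD rapamycin 2 (0.0685), and its brassinolide call without any library but RiD mock 1 (up to 0.223). CBL1, a calcium sensor that works with the kinase of NRT1.1, rose 2.29-fold with rapamycin (adjusted p = 0.00122). ANR1, a MADS-box factor of root growth towards nitrate, fell 2.94-fold (adjusted p = 0.0162, but 0.0512 without RiD mock 1, 0.0790 without RiD mock 2 and 0.0898 without RiD rapamycin 1). With brassinolide 0 rose and 1 fell, and with the block 9 rose and 5 fell.

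Uptake genes for organic nitrogen numbered 7, of which 3 rose and 0 fell with rapamycin, with a median of 0.66. LHT1, an amino acid transporter of root and leaf cells, had 875.2 and 1090.4 normalized counts in RiD mock, 6720.1 and 9446 with rapamycin and 2975 and 3426 with brassinolide. It rose 8.22-fold with rapamycin (adjusted p = 7.22e-05) and 3.26-fold with brassinolide (adjusted p = 0.00313), and no RiD group overlapped with another. The peptide transporter NPF8.1 rose 2.07-fold with rapamycin (adjusted p = 0.00299) and AAP5, an amino acid permease, 1.58-fold (adjusted p = 0.0289, and up to 0.131 without any single RiD mock or RiD rapamycin library). With the block 5 rose and 1 fell with rapamycin, and 2 rose and 1 fell with brassinolide.

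Among 9 uptake genes for other minerals 1 rose and 1 fell with rapamycin, with a median of 0.02. PHT1;1, a phosphate transporter, rose from 1448 ± 8.22 to 4065 ± 577 (adjusted p = 0.00143), and PHT1;4, another phosphate transporter, fell from 373.7 ± 1.19 to 246.2 ± 13.9 (adjusted p = 0.0215). With brassinolide 0 rose and PHT1;4 alone fell, to 216.3 ± 10.9 (adjusted p = 0.0174). Both calls of PHT1;4 were lost without any single library of the groups compared (up to 0.116 and 0.0964). With the block 2 rose and 3 fell with rapamycin, and 2 rose and 2 fell with brassinolide.

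**Figure D3:**
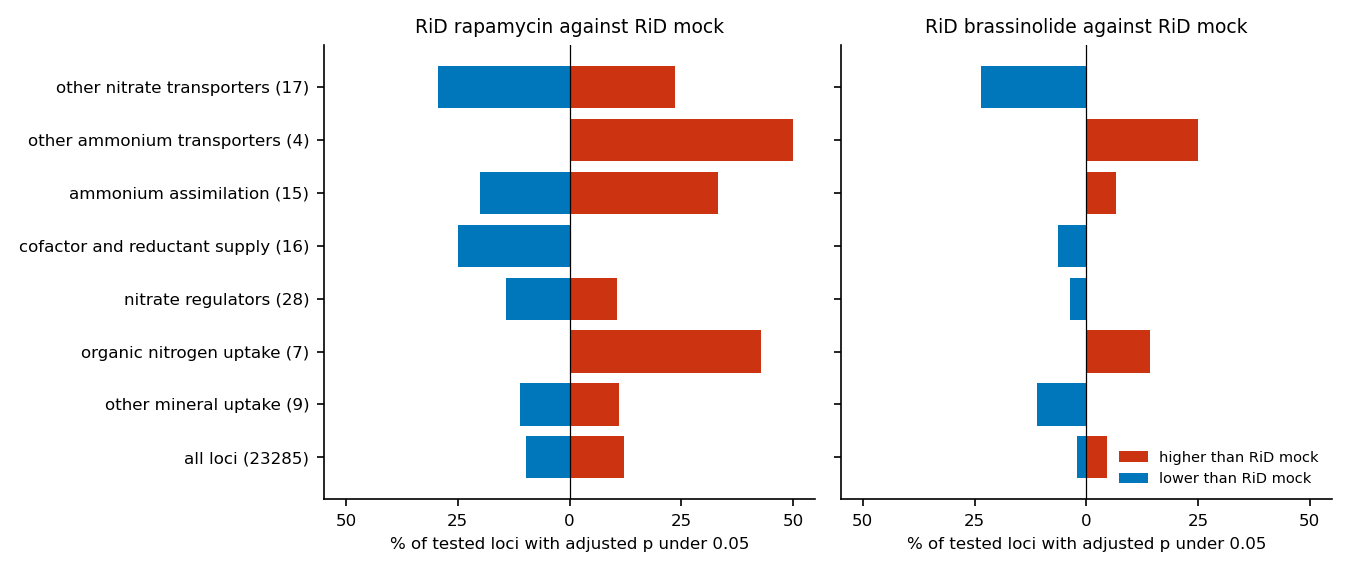
Share of tested loci called higher (right) or lower (left) than RiD mock, in percent (x axis), for 7 lists with the number tested in brackets and for all 23285 tested loci (y axis); the left panel is RiD rapamycin and the right panel RiD brassinolide. The all-loci bars read 12.3 and 9.72 with rapamycin and 4.63 and 2.13 with brassinolide.

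**Figure D4:**
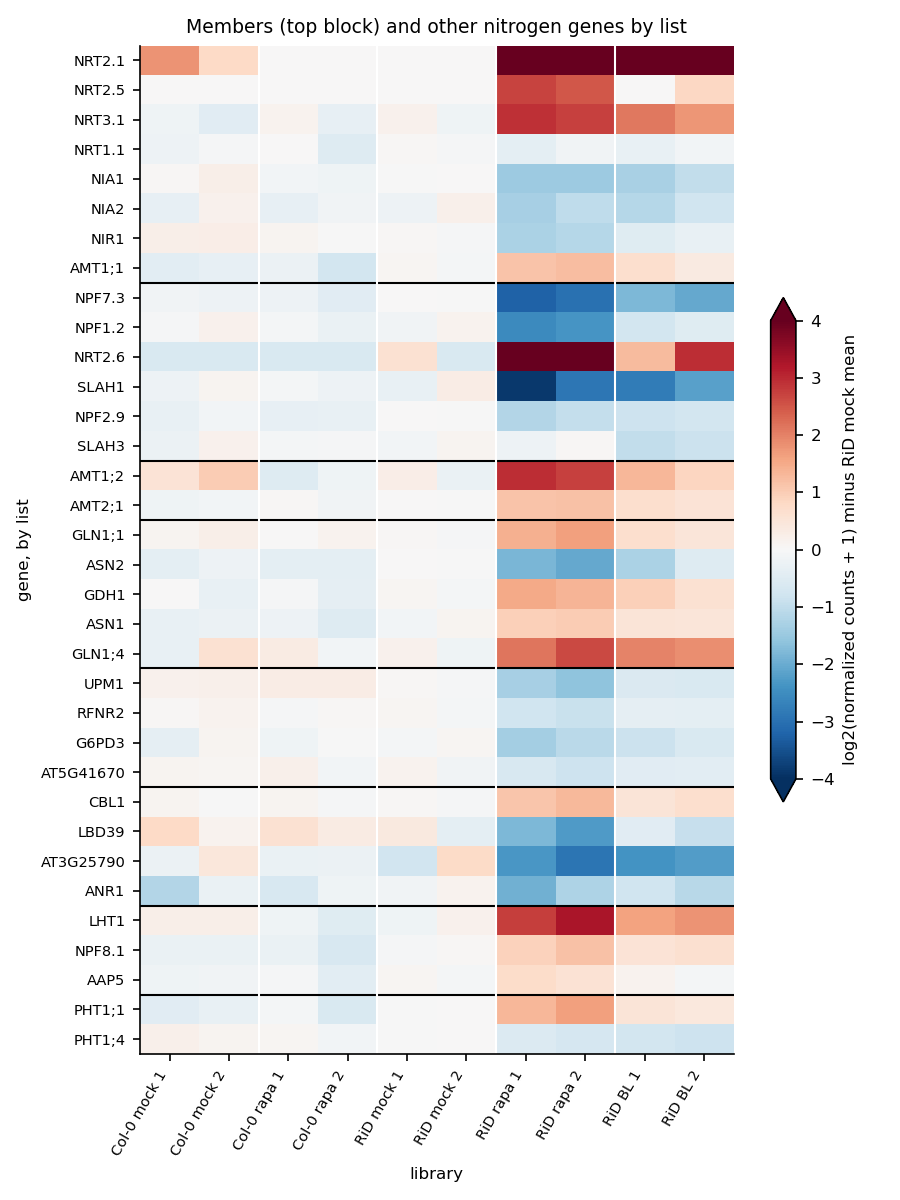
Log2(normalized counts + 1) minus the RiD mock mean (colour, cut at 4 on either side) for 8 of the 10 genes in the top block and the named genes of the 7 lists below (rows), in each of the 10 libraries (columns). The Col-0 and RiD mock libraries are pale, the RiD rapamycin libraries are the strongest in colour for most rows, and SLAH3 is lower with brassinolide alone.

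Markers of root and shoot cell types moved in the same libraries. The summed level of 6 root hair markers was 154.3 to 196.0 normalized counts in RiD mock, 6.12 to 6.95 with rapamycin and 5.27 to 13.1 with brassinolide, and all 6 fell with each treatment, with 1 and 3 of them listed at 0. PRP1, a root hair wall protein, lost its call with rapamycin without RiD mock 1 (adjusted p = 0.0587), and RHD6, COBL9 and PRP1 lost theirs with brassinolide in 6, 2 and 3 of the 10 fits with a library left out. The sum of 6 endodermis markers was 5212 to 6362 in RiD mock, 15423 to 15755 with rapamycin and 9978 to 10886 with brassinolide, and 5 and 3 of the 6 rose (5 and 5 with the block). The largest gains in counts with rapamycin were those of ESB1, from 2726 ± 753 to 8303 ± 587, and CASP1, from 1215 ± 255 to 4511 ± 94.0. Relative to RiD mock the largest were those of GPAT5, from 2.74 ± 1.61 to 242.6 ± 22.9, and CYP86A1, from 6.52 ± 3.56 to 462.9 ± 70.2. Both were low in RiD mock, and with brassinolide they averaged 96.8 ± 12.3 and 169.2 ± 14.2. SCR did not rise, at 1444 ± 204 in RiD mock, 1243 ± 291 with rapamycin and 1242 ± 289 with brassinolide. The sum of 6 root-enriched genes was 65643 to 68002, 47172 to 47780 and 46824 to 55239 in the same order. PYK10 held most of that sum, at 56819 ± 3154 in RiD mock, 29881 ± 1867 with rapamycin and 31594 ± 6512 with brassinolide. With rapamycin 1 of the 6 rose and 3 fell, and SKOR, a potassium channel of the root stele, fell 8.72-fold (adjusted p = 3.39e-05). The 1 that rose was TIP2;3, from 5201 ± 1531 to 13769 ± 1738, and it averaged 15042 ± 652 with brassinolide. The sum of 5 shoot and shoot epidermis markers was 19070.0 to 20171, 29075 to 33413 and 25662 to 28769.7, with 3 rising with rapamycin and 1 with brassinolide, and 4 and 2 with the block. ATML1, an epidermal factor, lost its call with rapamycin without RiD mock 1 or RiD rapamycin 2 (up to 0.129), and KNAT1, a stem homeobox factor, without RiD mock 1 or either RiD rapamycin library (up to 0.171). KCS6, an epidermal wax enzyme, lost its call with brassinolide without any single RiD mock or RiD brassinolide library (up to 0.0745). STM, the shoot meristem factor, averaged 388.0 ± 12.3 in RiD mock, 287.3 ± 30.6 with rapamycin (adjusted p = 0.105, with the block 0.0165) and 241.8 ± 6.51 with brassinolide (adjusted p = 0.0519, with the block 0.00186). CASP1, TIP2;3 and PYK10, of the root lists, lost their brassinolide calls in 1, 1 and 3 of the 10 fits with a library left out. In Col-0 no marker was called. The part of these shifts in the levels of the nitrate genes was not tested.

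The genes whose pattern over the 10 libraries was most like that of NRT2.1, among 16868 loci with a mean of at least 50 normalized counts, were PPa4 (AT3G53620), AT4G38860, AT2G04570, SAUR9 (AT4G36110) and WAG2 (AT3G14370), with Pearson correlations of 0.990 to 0.992. PPa4, a soluble inorganic pyrophosphatase, averaged 372.1 ± 48.3 in RiD mock, 1533 ± 82.1 with rapamycin and 979.0 ± 12.9 with brassinolide. SAUR9, of an auxin-responsive family, averaged 28.6 ± 0.272, 1647 ± 132 and 568.5 ± 52.5 in the same groups. For NIA2 they were PMH1 (AT3G22310), MVD1 (AT2G38700), AT5G61970, AT1G10490 and TCP-1 (AT3G20050), with correlations of 0.985 to 0.992. PMH1, a mitochondrial RNA helicase, averaged 380.6 ± 91.2, 164.5 ± 26.0 and 201.1 ± 53.3. These correlations describe libraries that share their groups and their numbers, and they were ranked among many loci.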

How the data were processed

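RNA abundance was measured in 10 libraries of whole seedlings, 2 in each of 5 groups, prepared with a TruSeq Stranded mRNA kit per the labels. The deposited signal values are normalized counts, 1 row per transcript. The submitters' processing notes name Salmon and DESeq2 with no version, and build, annotation and use of strand were not given in the sources used here. Groups and numbers came from the sample titles, and 0 columns were left without a sample.

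The 40812 transcripts were summed to 32753 loci. The file lists locus IDs, and names, exon lengths and upstream sequence came from TAIR10.1 of RefSeq, matched by locus. Motifs and sequence identities were computed with Biopython 1.88. Sums were tested as log2 of the value plus 1 by limma 3.58.1 (R 4.3.3) with trend and robust moderation, for 23285 loci with at least 1 in at least 2 libraries. The model held the 5 groups over the 10 libraries (5 residual degrees of freedom), and p-values were adjusted over all tested loci within a comparison. The fit was tested on simulated data. The plan allowed for raw counts or for normalized values, and the test for normalized values was used.

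Replicate numbers, taken from the titles, paired the libraries: the deviations of same-numbered libraries correlated between groups, at 0.320 to 0.511 over 10 pairs of groups. What a number marks is not in the labels. The fit with the number as a block has 4 residual degrees of freedom, and its value is given where it changed the call of a difference the text describes, and as counts for the lists.

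The step between low values gave estimates of 18.4 to 19.6 M reads for each library 1 and of 29.3 to 33.9 M for each library 2. With a tolerance of 0.1 read, at least 95% of low values were whole reads in 8 of 10 columns. A fold against a group at 0 was set against 3 reads per library, averaged over the group. Floors cover counting error only.

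The genes and lists were chosen with earlier results of these data known. All 10 genes are named. From each other list the text names up to 4 loci with the smallest adjusted p among those called in RiD rapamycin against RiD mock, up to 2 further called with brassinolide, and the 5 loci most like NRT2.1 and NIA2. NRT2.7 is named as a further NRT2 gene. Markers are given mainly as sums.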

Additional observations from a re-analysis of the deposited data

Results flagged for a closer look

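The rapamycin effect in RiD minus that in Col-0 drew attention for 5 of the 8 tested genes. It was 9.36 on the log2 scale for NRT2.1, 2.62 for NRT3.1, -1.18 for NIA1, -1.02 for NIR1 and 1.29 for AMT1;1. Each value holds the comparison of RiD rapamycin with RiD mock, which was known when the genes were chosen. The values are therefore a description, and no test of them is read.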

How the results depend on the processing

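Over the alternatives tried, 821 differences of single genes kept their direction and their side of the threshold. A further 50 lost a call, 13 gained one and 10 changed sign or went to 0. Of the list counts 1045 stayed within 1.5 times while 209 did not. Counts of called genes moved by over 1.5 times in 2 comparisons. For RiD rapamycin against RiD brassinolide the count of 2 became 6 with the library number as a block, 1 with a pseudocount of 0.5, with a minimum of 10 in 2 libraries, with equal library totals, with quantile normalization or with the highest transcript per locus, and 0 to 1 with a library left out. For the difference of rapamycin effects between lines, a description only, the count of 5 ran from 2 to 5 with a library left out, 2 without Col-0 mock 1 and 3 without RiD mock 1, RiD rapamycin 1 or RiD rapamycin 2. The cause was not tested.

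All differences that changed sign or went to 0 did so when a library was left out, and none of them was called. The ranges with a library left out were 0 to 0.83 for NRT2.5 in RiD brassinolide against RiD mock, and for NRT1.1 -0.19 to 0.06 in RiD rapamycin against RiD brassinolide (0.060 and 0.037 without RiD rapamycin 1 and RiD brassinolide 2), -0.40 to 0.12 in Col-0 rapamycin against Col-0 mock and -0.39 to 0.13 in the difference of effects. In Col-0 rapamycin against Col-0 mock they were -0.018 to 0.44 for NRT3.1, -0.40 to 0.093 for NIA2 and -0.34 to 0.14 for AMT1;1. NIA2 in RiD mock against Col-0 mock ran from -0.16 to 0.33, and gave -0.12 without RiD mock 2.

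With equal library totals the median of all loci in RiD rapamycin against RiD mock was -0.16 in place of -0.03, and 2473 loci were called higher and 3218 lower in place of 2857 and 2263. The block called 5604 and 5611 there, 3445 and 2979 in place of 1079 and 496 with brassinolide, 2534 and 2116 in place of 240 and 356 between the treatments, 4238 and 3655 in place of 1512 and 829 for the difference of effects, 5 and 38 in place of 0 in Col-0, and 53 and 30 in place of 0 between the mock groups. Beyond the calls given in the text with the block, it changed no other call of the 10 genes. A count test on recovered reads was not run, since whole reads were recovered in 8 of 10 columns. Depth limits NRT2.4, listed at 0 in all libraries, and NRT2.5, whose highest values lie close to 3 reads. For NRT2.2, also listed at 0 in all libraries, the unknown assignment of reads shared with NRT2.1 is a further limit.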
